A study of Mus musculus with 9 samples.

Results

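The small leucine-rich proteoglycans are secreted proteins of the extracellular matrix that bind collagen fibrils. The 8 genes described here, Prelp, Dcn, Lum, Bgn, Fmod, Ogn, Aspn and Omd, were found by exact match of the gene name among 28998 genes in the deposited table, and all 8 were present. The family was chosen by the FPKM of Prelp (fragments scaled to transcript length and sequencing depth), which was above Control with JHU083 and below it with WGFT17. The values of Prelp are therefore given as a description, with no test in any comparison. The other 7 were taken by family membership, with earlier results of these data known.

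RNA was sequenced from 9 libraries of macrophages grown from bone marrow monocytes of wild-type C57 mice. All 3 groups were cultured for 7 days with the myeloid growth factor GM-CSF. WGFT17 (3 libraries) and JHU083 (3 libraries) cells then had 36 h of the drug named, and Control (3 libraries) is the group set against them. JHU083 is a prodrug of the glutamine antagonist DON, and WGFT17 is a code name whose target was not used here. The labels give no dose, no sex or age of the mice, and no treatment or extra culture time for Control, so drug and culture time cannot be told apart. They describe the cells as adherent. Whether replicates are separate animals or cultures is not stated, so the p-values measure the spread between these libraries, which may be technical.

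Each of these proteins carries a curved stack of leucine-rich repeats that docks onto collagen and sets the width and spacing of fibrils. Decorin, biglycan and asporin form class I, of which decorin and biglycan carry chondroitin or dermatan sulfate chains. Fibromodulin, lumican, osteomodulin (Omd) and Prelp form class II, whose members, Prelp excepted, can carry keratan sulfate. Osteoglycin (Ogn) belongs to class III. Fibroblasts, bone and cartilage cells are their main sources. Soluble biglycan and decorin are also known to bind Toll-like receptors on macrophages and to hold TGF-beta in the matrix.

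The labelled cell type was borne out by its markers, since the summed FPKM of 9 macrophage and monocyte genes was 11310 to 12602 in WGFT17, 11218 to 12617 in JHU083 and 10562 to 11456 in Control, with all 9 above 0 in every library. Lyz2, the lysozyme gene, made up most of that sum (9660 ± 652 FPKM in WGFT17 and 8013 ± 460 in Control), and single markers moved both ways, with 3 higher, 3 lower and 3 not passing in WGFT17 against Control. C1qb, a complement gene, was lower (638 ± 32.0 FPKM in WGFT17 and 1102 ± 48.3 in Control, log2 -0.90, edgeR adjusted p = 1.55e-06), as was the integrin gene Itgam (99.1 ± 7.74 FPKM in WGFT17 and 134 ± 6.07 in Control, log2 -0.55, adjusted p = 7.34e-05). Csf1r also lay below Control in every WGFT17 library, with 216.67 to 239.3 FPKM in WGFT17 and 267.6 to 277.07 in Control. Some of the other macrophage markers lay above Control in every WGFT17 library. Ptprc, for example, had 14.82 to 15.62 FPKM in WGFT17 and 8.77 to 10.47 in Control. Mertk had 31.95 to 33.11 FPKM in WGFT17 and 24.86 to 27.01 in Control. Transcripts of other cells were present beside those of macrophages. A sum over 15 fibroblast and marrow stroma markers came to 32.0 to 34.7 FPKM in WGFT17, 123 to 137 in JHU083 and 131 to 146 in Control. The 8 heart muscle markers summed to 0.10 to 0.14 FPKM in WGFT17, to 46.6, 0.11 and 74.8 in JHU083 replicates 1 to 3, and to 56.6 to 65.5 in Control. The 6 photoreceptor markers were at 0.08 to 0.15 FPKM in WGFT17, at 0.17, 0.12 and 7.28 in JHU083, and at 6.36 to 8.47 in Control. JHU083 replicate 3 thus resembled Control in both sums. Liver markers (7 genes) summed to 84.2 to 195 FPKM in WGFT17, 60.8 to 199 in JHU083 and 358 to 401 in Control. Smaller sums were those of cartilage and bone (6.28 to 7.58, 26.3 to 29.0 and 31.6 to 37.0 in WGFT17, JHU083 and Control), smooth muscle and pericytes (0.95 to 1.05, 8.82 to 12.2 and 22.6 to 24.7), endothelium (2.41 to 3.38, 6.92 to 8.46 and 6.01 to 6.94) and tendon (1.20 to 1.52, 1.02 to 2.08 and 1.40 to 1.99). In WGFT17 the tendon marker Tnmd, the photoreceptor markers Rcvrn and Prph2 and the heart markers Myl2, Myl7, Ryr2, Myh6 and Actc1 were at 0 in all 3 libraries, and Myl7 was also at 0 in Control.

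The 8 members were lower in WGFT17, by amounts that differed between them. All 8 genes lay below both Control and JHU083 in every WGFT17 library, though for Prelp the place below Control was part of the choice. How many of all genes separate in this way was not counted, and the shares that follow are of test calls. For scale, edgeR's quasi-likelihood test called, among the 11798 genes whose FPKM averaged 1 or more, 30.0% lower and 28.0% higher in WGFT17 against Control at a Benjamini-Hochberg adjusted p under 0.05, and 24.4% lower and 20.4% higher in WGFT17 against JHU083. Of the 8 members, 5 passed the minimum (Bgn, Dcn, Ogn, Fmod and Prelp) and Lum, Aspn and Omd did not, with means of 0.75, 0.756 and 0.984 FPKM over the 9 libraries against 4.30 for Prelp. Bgn, Dcn, Ogn and Fmod averaged more than 1 FPKM in WGFT17 itself, whereas Prelp passed only through JHU083 and Control. JHU083 against Control was a smaller contrast, with 12.5% of genes called lower and 11.5% higher, and there 1 of the 4 tested members other than Prelp was called.

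**Figure D1:**
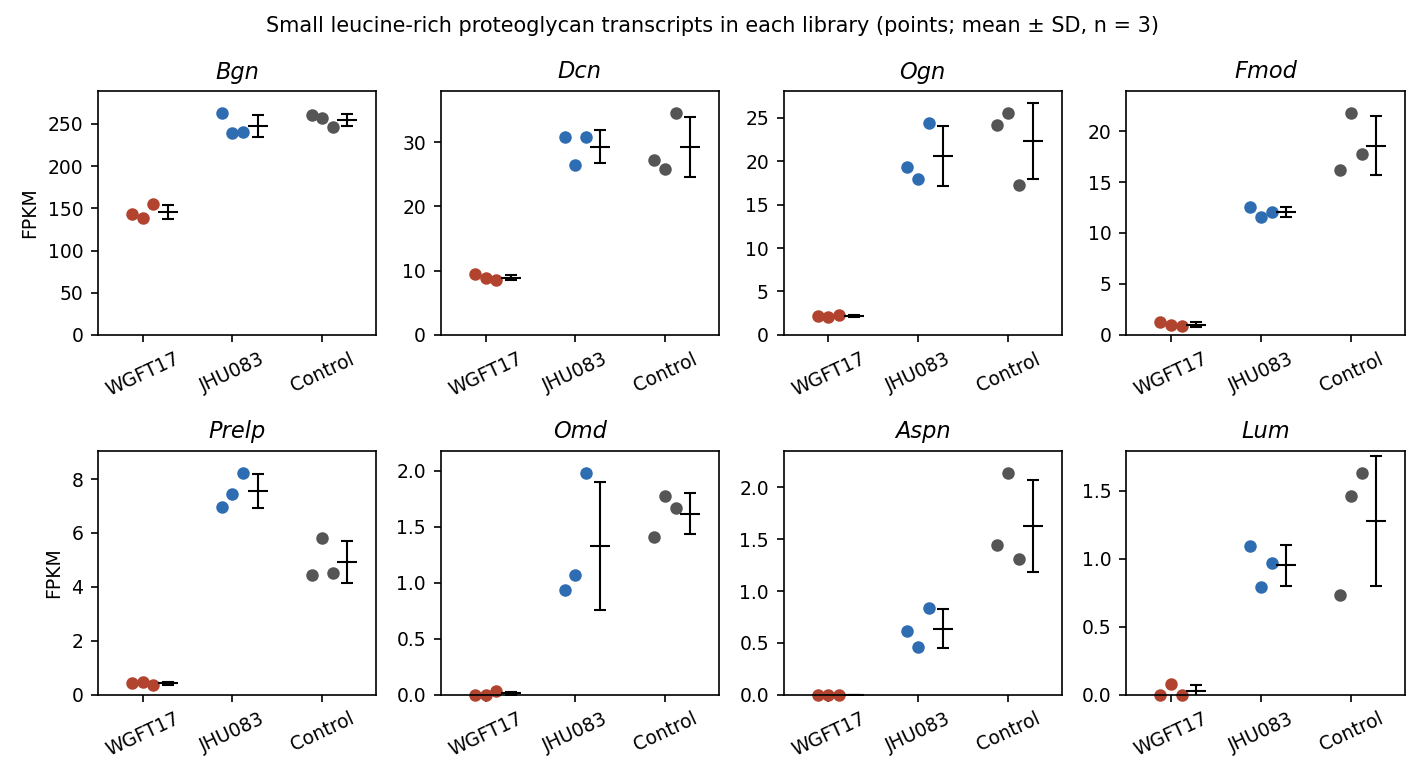
FPKM of the 8 members (vertical axis, linear and from 0, with its own scale in each panel) in the 3 libraries of WGFT17, JHU083 and Control; points are libraries, and the bar beside them is the mean ± SD (n = 3). In every panel the WGFT17 points lie below the other 2 groups, and in the Prelp panel the JHU083 points (6.97 to 8.23) lie above Control (4.44 to 5.81).

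Among class I, biglycan was by far the most abundant and fell least in WGFT17. Bgn (chromosome X, 73483602 to 73495933, plus strand, in GRCm38 coordinates) had 143, 138 and 155 FPKM in WGFT17, 263, 239 and 241 in JHU083 and 260.1, 257 and 246 in Control. The 3 WGFT17 libraries lay below all others, while JHU083 and Control overlapped. Its mean was 145 ± 8.60 FPKM in WGFT17 against 255 ± 7.28 in Control (SD, n = 3 each), so Bgn fell 1.89-fold (log2 -0.92, SE 0.06, edgeR quasi-likelihood adjusted p = 1.45e-07). It also fell 1.72-fold in WGFT17 against JHU083 (log2 -0.78, SE 0.06, adjusted p = 6.76e-07). In JHU083 against Control the log2 change was -0.13 (SE 0.06) and did not pass in the edgeR test (adjusted p = 0.109), though DESeq2 called it (adjusted p = 0.0396).

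Decorin, which binds collagen I and TGF-beta, was next in level. Dcn (chromosome 10, 97479609 to 97518143, plus strand) had 9.40, 8.85 and 8.52 FPKM in WGFT17, 30.8, 26.4 and 30.7 in JHU083 and 27.3, 25.9 and 34.5 in Control. Again only WGFT17 stood apart. Dcn fell 3.53-fold in WGFT17 against Control (log2 -1.82, SE 0.11, edgeR adjusted p = 9.36e-08) and 3.32-fold in WGFT17 against JHU083 (log2 -1.73, SE 0.11, adjusted p = 1.71e-07). No change was detected in JHU083 against Control (log2 -0.09, SE 0.10, adjusted p = 0.555), where even the sign depended on the setting. The deposited FPKM had nearly the same mean, 29.3 ± 2.53 in JHU083 and 29.2 ± 4.63 in Control.

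Asporin, a class I protein without a glycosaminoglycan chain that binds calcium and TGF-beta, was the faintest of its class. Aspn (chromosome 13, 49544443 to 49567565, plus strand) was at 0 in all 3 WGFT17 libraries, at 0.61, 0.46 and 0.84 FPKM in JHU083 and at 1.44, 2.14 and 1.31 in Control. The 3 groups did not overlap in any pair. About 4 of the deposited estimated counts stand for 1 read pair, so the summed counts correspond to 0 pairs in WGFT17, 74 in JHU083 and 209 in Control. With a floor of 3 pairs over the WGFT17 group, Aspn was at least 74.0-fold lower in WGFT17 than in Control and at least 27.7-fold lower than in JHU083, where the floor covers counting error only. In a fit without the FPKM minimum, which calls 3.53% of 28998 genes lower in JHU083 against Control, Aspn fell 2.72-fold in JHU083 (log2 -1.44, SE 0.31, edgeR adjusted p = 0.0352). No other setting tested Aspn, so this call was not checked in a second fit.

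Of class II, fibromodulin was lower with both drugs. Fmod, whose product competes with lumican for collagen I and helps lay down tendon fibrils (chromosome 1, 134037254 to 134048277, plus strand), had 1.26, 0.92 and 0.87 FPKM in WGFT17, 12.5, 11.6 and 12 in JHU083 and 16.2, 21.8 and 17.8 in Control. The groups formed 3 separate levels, with JHU083 in the middle. Fmod fell 19.7-fold in WGFT17 against Control (log2 -4.30, SE 0.15, edgeR adjusted p = 1.51e-09) and 12-fold in WGFT17 against JHU083 (log2 -3.58, SE 0.15, adjusted p = 6.16e-09). In JHU083 against Control it fell 1.64-fold (log2 -0.72, SE 0.13, adjusted p = 0.00353), and this call held in all 20 alternative settings, with a largest adjusted p of 0.0197. Beside it, the smooth muscle sum was 8.82 to 12.2 FPKM in JHU083 against 22.6 to 24.7 in Control, and the cartilage and bone sum 26.3 to 29.0 in JHU083 against 31.6 to 37.0 in Control; their part in the Fmod value was not tested.

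Prelp, a class II protein with a basic, arginine- and proline-rich end that binds heparan sulfate and can link basement membranes to collagen, was the member that differed in direction between the drugs. The gene lies on chromosome 1 (133910304 to 133921414, minus strand). It had 0.44, 0.47 and 0.35 FPKM in WGFT17, 6.97, 7.44 and 8.23 in JHU083 and 4.44, 5.81 and 4.51 in Control, from 117, 125 and 91 estimated counts in WGFT17, 1617, 1856 and 1889 in JHU083 and 1101, 1542 and 1221 in Control. No library of one group reached the range of another. The log2 change of the count fit was -3.64 (SE 0.15) in WGFT17 against Control, -4.16 (SE 0.15) in WGFT17 against JHU083 and 0.52 (SE 0.13) in JHU083 against Control. These values chose the gene and carry no test. Both comparisons with Control use the same Control libraries. In JHU083 replicate 2, where the heart and photoreceptor sums were 0.11 and 0.12 FPKM, Prelp was at 7.44 FPKM, between replicates 1 and 3. That is 1 library, and the part of other tissues in the Prelp values was not tested. The ratio of Prelp to Fmod FPKM within a library was 0.349 to 0.511 in WGFT17, 0.556 to 0.684 in JHU083 and 0.254 to 0.274 in Control. This ratio uses the Prelp values that chose the family, so it is a description and adds no separate result. How many other pairs of genes separate the groups in this way was not counted.

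**Figure D2:**
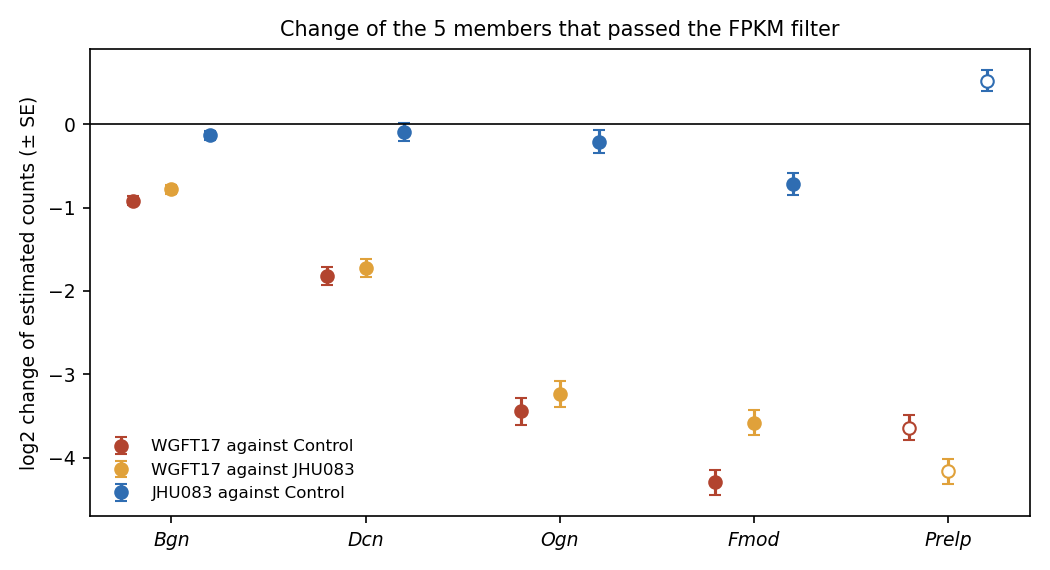
Log2 change of the estimated counts (vertical axis, ± SE of the edgeR fit) for the 5 members that passed the FPKM minimum, in WGFT17 against Control, WGFT17 against JHU083 and JHU083 against Control. Filled points were tested and open points (Prelp) are shown as a description. The WGFT17 changes against Control run from -0.92 for Bgn to -4.30 for Fmod, and Prelp alone is above 0 in JHU083 against Control (0.52).

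The promoters of 3 members are shown because they stand for the 3 patterns: Prelp (opposite directions), Fmod (lower with both drugs) and Bgn (smallest fall). Each line is the 250 bases upstream of a RefSeq transcription start in GRCm38.p6, on the strand of the gene, with motif matches in capitals. They lie at chr1:133921402-133921651 (minus strand), chr1:134037004-134037253 (plus strand) and chrX:73483351-73483600 (plus strand).
Prelp: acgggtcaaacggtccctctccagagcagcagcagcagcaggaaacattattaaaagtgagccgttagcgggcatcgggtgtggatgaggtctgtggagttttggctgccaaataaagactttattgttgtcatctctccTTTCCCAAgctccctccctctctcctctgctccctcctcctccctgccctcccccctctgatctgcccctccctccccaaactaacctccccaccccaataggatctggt
Fmod: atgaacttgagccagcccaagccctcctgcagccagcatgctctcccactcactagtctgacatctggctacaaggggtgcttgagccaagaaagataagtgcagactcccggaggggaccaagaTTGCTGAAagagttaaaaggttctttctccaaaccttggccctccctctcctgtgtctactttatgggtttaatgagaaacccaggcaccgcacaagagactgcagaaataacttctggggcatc
Bgn: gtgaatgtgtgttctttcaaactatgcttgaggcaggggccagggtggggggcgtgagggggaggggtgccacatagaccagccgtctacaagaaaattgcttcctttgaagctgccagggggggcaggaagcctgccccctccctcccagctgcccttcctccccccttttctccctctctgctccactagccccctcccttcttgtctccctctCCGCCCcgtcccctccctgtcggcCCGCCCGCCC
Both strands were searched for the TATA box written as TATAAA, for the AP-1 site written as TGANTCA, for the GC box written as GGGCGG and for a loose C/EBP core written as TTNCNNAA. The Prelp and Fmod windows each held 1 match of the C/EBP core, beginning 110 and 125 bases upstream of the start. The Bgn window held 3 matches of the GC box, all read on the opposite strand, of which the 2 nearest the start overlap each other. None of the 3 windows held the TATA box or AP-1 letters, and no match of one motif overlapped one of another. Among 32536 distinct RefSeq windows of this length, 12.3% held the TATA box, 6.73% the AP-1 site, 33.0% the GC box and 36.8% the C/EBP core. A match describes the letters and says nothing of binding. GC content was 55.6% for Prelp, 51.2% for Fmod and 64.4% for Bgn.

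The 2 remaining class II genes were near the limit of detection. Lumican, a keratan sulfate proteoglycan best known from the cornea, is encoded by Lum (chromosome 10, 97565128 to 97572703, plus strand), which had 0, 0.08 and 0 FPKM in WGFT17, 1.09, 0.79 and 0.97 in JHU083 and 0.73, 1.46 and 1.63 in Control. Osteomodulin, a bone proteoglycan, is encoded by Omd (chromosome 13, 49582462 to 49592822, plus strand), which had 0, 0 and 0.03 FPKM in WGFT17, 0.93, 1.07 and 1.98 in JHU083 and 1.41, 1.77 and 1.67 in Control. For both genes JHU083 and Control overlapped and WGFT17 lay below them. In read pairs summed over a group, Lum had about 4 in WGFT17 against 171 in Control, 45.4-fold lower per total count (95% exact interval for counting error 17.4 to 169). Omd had about 1 in WGFT17 against 198 in Control, 210.3-fold lower (37.3 to 8348). Without the FPKM minimum, where 14.9% of 28998 genes were called lower in WGFT17 against Control and 11.7% in WGFT17 against JHU083, all 7 members other than Prelp fell in both comparisons. The adjusted p of Lum was 0.000671 and that of Omd 1.78e-05 against Control in that edgeR fit, and neither passed in JHU083 against Control (adjusted p = 0.691 and 0.667).

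Osteoglycin, also called mimecan, is the class III member and is known from bone, cornea and heart. Ogn (chromosome 13, 49608046 to 49624501, plus strand) had 2.23, 2.07 and 2.33 FPKM in WGFT17, 19.4, 18.0 and 24.5 in JHU083 and 24.2, 25.5 and 17.3 in Control. JHU083 and Control overlapped, and WGFT17 was far below both. Ogn fell 10.9-fold in WGFT17 against Control (log2 -3.44, SE 0.16, edgeR adjusted p = 1.33e-08) and 9.42-fold in WGFT17 against JHU083 (log2 -3.24, SE 0.16, adjusted p = 2.61e-08). No change was detected in JHU083 against Control (log2 -0.21, SE 0.14, adjusted p = 0.311). Within JHU083, Ogn, Omd, Aspn and Prelp were highest in replicate 3, where the heart sum was also highest. The other members were highest in replicate 1. Replicates 1 and 2 had heart sums of 46.6 and 0.11 FPKM. They had 19.4 and 18.0 FPKM of Ogn, 0.93 and 1.07 of Omd, 0.61 and 0.46 of Aspn, and 6.97 and 7.44 of Prelp. The part of that tissue in these values was not tested.

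Because the members fell by unequal amounts, the make-up of the family shifted with WGFT17. Summed FPKM of all 8 was 150.5 to 167 in WGFT17, 305.0 to 335 in JHU083 and 325 to 342 in Control. Bgn made up 91.5 to 92.8% of that sum in WGFT17, 75.2 to 78.5% in JHU083 and 75.3 to 77.5% in Control. The 7 others together had 12.1 to 13.3 FPKM in WGFT17, 65.7 to 79.2 in JHU083 and 75.7 to 84.4 in Control. FPKM is scaled to length, so levels can be set side by side: in all 3 groups the order was Bgn, Dcn, Ogn, Fmod and Prelp. Neighbours in this order did not overlap within a group, except Ogn and Fmod in Control. Lum, Aspn and Omd came after Prelp and overlapped one another within each group, except that Omd (0.93 to 1.98 FPKM) lay above Aspn (0.46 to 0.84 FPKM) in JHU083.

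All members but Bgn, which is alone on chromosome X, lie near other members, and neighbours did not share one size of change. Prelp and Fmod are 116 kb apart on chromosome 1, and Dcn and Lum 47.0 kb apart on chromosome 10. Aspn, Omd and Ogn follow each other within gaps of 14.9 and 15.2 kb on chromosome 13. Other family genes of these clusters were nearly silent: Optc next to Prelp had 0.03 to 0.11 FPKM in WGFT17, 0.10 to 0.16 in JHU083 and 0.06 to 0.15 in Control, and Ecm2 next to Aspn had 0.01 to 0.02 FPKM in WGFT17, 0.08 to 0.14 in JHU083 and 0.20 to 0.22 in Control. In the annotation (GENCODE M21), Aspn, Omd and Ogn all overlap Cenpp on the opposite strand, and Prelp overlaps Gm15851. Cenpp, a centromere protein gene, had 0.05 to 0.10 FPKM in WGFT17, 0.60 to 1.05 in JHU083 and 0.78 to 1.07 in Control. Libraries were stranded, but the sources used here do not say whether counting used the strand. For these 4 members reads of the opposite gene can therefore not be told apart. Outside the family, Nol8 beside the chromosome 13 cluster rose in WGFT17 against Control (log2 0.53, edgeR adjusted p = 0.00362), and Btg2, the next coding gene after Fmod, fell (log2 -1.46, adjusted p = 1.05e-07).

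Most of the better expressed fibroblast markers moved with these results. Of the 15 markers 7 passed the FPKM minimum, and all 7 fell in WGFT17 against Control (median log2 change -1.56, against 0.0044 over all tested genes). Among the 8 under the minimum, the marrow stroma marker Lepr had 0.79, 0.98 and 0.79 FPKM in WGFT17 against 0.65, 0.54 and 0.50 in Control, and Thy1 (0.54 to 1.30 FPKM in WGFT17 and 0.69 to 0.77 in Control) and Pi16 (0.15 to 0.25 in WGFT17 and 0.08 to 0.17 in Control) were not lower either. Of the same 8, Mfap5 (0.10 to 0.12 FPKM in WGFT17 and 1.14 to 1.33 in Control) was lower in every WGFT17 library. So were Fap (0.14 to 0.31 and 1.09 to 1.27), Dpt (0 to 0.06 and 0.45 to 0.71) and Twist2 (0.12 to 0.17 and 0.23 to 0.53). Tcf21 was at 0 to 0.05 FPKM in WGFT17 and 0 to 0.02 in Control. In WGFT17 against JHU083 all 7 tested markers fell too (median -1.55). In JHU083 against Control 2 fell (Fbln1, log2 -0.56, and Pdgfrb, log2 -0.33), 5 did not pass and the median was -0.15. Cxcl12, a chemokine of marrow stroma, had 2.21 ± 0.235 FPKM in WGFT17 against 46.1 ± 5.77 in Control (log2 -4.49, edgeR adjusted p = 1.23e-10), and Fbln1, a matrix glycoprotein gene, had 0.773 ± 0.117 against 6.25 ± 0.344 (log2 -3.12, adjusted p = 2.13e-09). Fbln1 averaged under 1 FPKM in WGFT17 and so passed the minimum only through the other groups; the other 6 averaged 1 or more there. Pdgfrb, a growth factor receptor of stromal cells and pericytes, had 5.92 ± 0.344 FPKM in WGFT17 against 20.0 ± 1.64 in JHU083 (log2 -1.77, adjusted p = 3.76e-09). Of the bone markers, Alpl, the alkaline phosphatase gene of osteoblasts, had 1.34 ± 0.0819 FPKM in WGFT17, 12.1 ± 1.08 in JHU083 and 16.0 ± 2.15 in Control. In bulk RNA, fewer stromal cells and less of a transcript per cell cannot be told apart.

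Set against the sum of the 15 markers, the 5 members that passed the FPKM minimum parted into 3 kinds. Prelp, whose values chose the family, is among these. Lum, Aspn and Omd, with 0 to 4 read pairs in WGFT17, were not sorted. Dcn came to 24.5 to 28.5% of the marker sum in WGFT17 and 17.7 to 26.3% in Control, ranges that overlap. Bgn was higher relative to the markers, at 431 to 446% in WGFT17 and 176 to 196% in Control. Fmod (2.50 to 3.82% in WGFT17 and 12.2 to 14.9% in Control), Ogn (6.46 to 6.75% in WGFT17 and 13.2 to 18.2% in Control) and Prelp (1.01 to 1.47% in WGFT17 and 3.35 to 3.98% in Control) were lower relative to the markers. Without Cxcl12 in the sum, a choice made after the data were seen, Dcn was at 26.4 to 30.5% in WGFT17 and 27.8 to 39.2% in Control, and the other 4 kept their side. In JHU083 against Control the marker sums overlapped (123 to 137 and 131 to 146 FPKM), and Prelp was at 5.07 to 6.39% of the sum in JHU083 against 3.35 to 3.98% in Control. The part of cell numbers in these values was not tested.

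**Figure D3:**
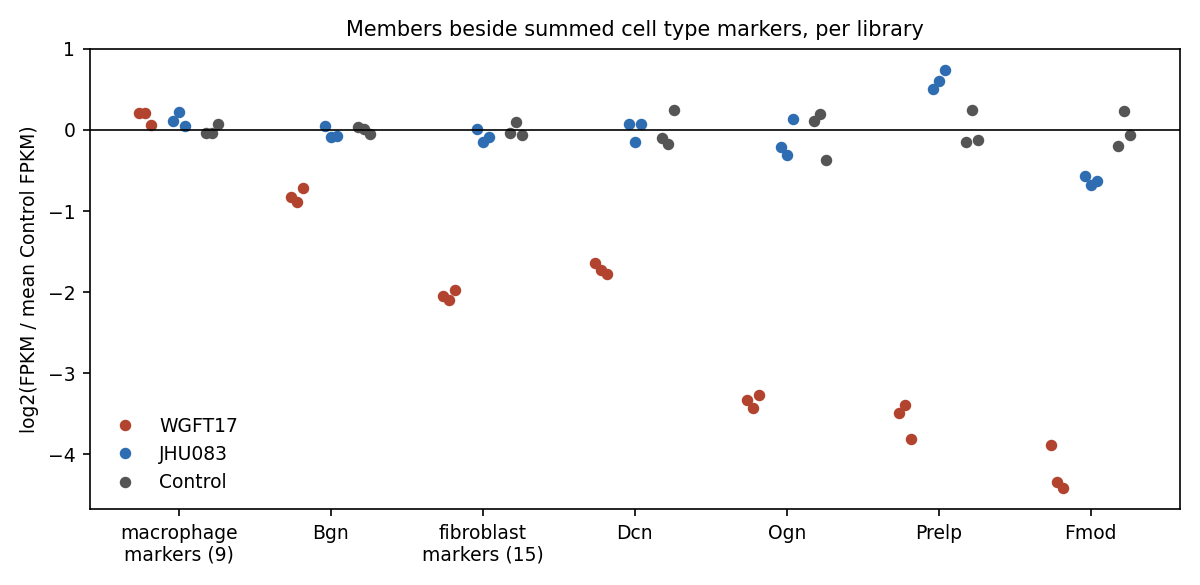
Log2 ratio of each library's FPKM to the mean of Control (vertical axis) for the summed macrophage markers, the summed fibroblast markers and 5 members; each point is a library of WGFT17, JHU083 or Control. In WGFT17 the macrophage sum, most of it Lyz2, stays near 0, Bgn lies above the fibroblast sum, Dcn close to it, and Ogn, Prelp and Fmod below it.

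Genes that build the sugar chains went in both directions, as tested genes did in general. Of all tested genes, 28.0% rose and 30.0% fell in WGFT17 against Control. These shares were 11.5% and 12.5% in JHU083 against Control, and 20.4% and 24.4% in WGFT17 against JHU083. Of 19 tested genes of linkage and chondroitin or dermatan sulfate synthesis, 5 rose, 9 fell and 5 did not pass in WGFT17 against Control (median log2 change -0.07). In JHU083 against Control 2 rose, 3 fell and 14 did not pass (median 0.05), and in WGFT17 against JHU083 3 rose, 8 fell and 8 did not pass (median -0.09). Chpf, a chondroitin chain polymerising factor, had 11.9 ± 0.617 FPKM in WGFT17 against 18.1 ± 0.150 in Control (log2 -0.71, edgeR adjusted p = 0.000448), and the chondroitin synthase gene Chsy1 fell too (log2 -0.54, adjusted p = 0.000139). The chondroitin sulfotransferase genes Chst12 (23.7 ± 2.70 FPKM in JHU083 against 27.3 ± 0.991 in Control, log2 -0.29, adjusted p = 0.0200) and Chst11 (8.37 ± 0.216 FPKM in WGFT17 against 12.1 ± 0.430 in JHU083, log2 -0.54, adjusted p = 3.81e-05) also fell. Of 8 tested genes of keratan sulfate synthesis and tyrosine sulfation, 2 rose, 5 fell and 1 did not pass in WGFT17 against Control (median -0.37), 1 fell and 7 did not pass in JHU083 against Control (median -0.08), and 1 rose, 3 fell and 4 did not pass in WGFT17 against JHU083 (median -0.12). Tpst1, which sulfates tyrosines of secreted proteins, fell by 0.52 (adjusted p = 0.000244), while B3gnt2, which extends lactosamine chains, rose by 0.44 (adjusted p = 4.34e-05), both in WGFT17 against Control. The gene called in JHU083 was B4galt1, a galactosyltransferase, with 42.3 ± 0.820 FPKM in JHU083 against 47.0 ± 2.06 in Control (log2 -0.25, adjusted p = 0.00549). Chst1, the keratan sulfate sulfotransferase gene, was singled out after its values were seen and passed the minimum only through JHU083 and Control. It had 0.643 FPKM in WGFT17 against 4.28 in Control (log2 -2.84), given as a description. Of the chondroitin list's 9 falls in WGFT17 against Control, 2 averaged under 1 FPKM in WGFT17, as did 2 of the keratan list's 5. Such genes passed the minimum only through the other groups.

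The collagens that these proteins bind were lower with both drugs. Of 20 tested genes of fibril collagens, fibril partners and cross-linking enzymes, all 20 fell in WGFT17 against Control (median log2 change -2.31) and in WGFT17 against JHU083 (median -2.0). In JHU083 against Control 17 fell and 3 did not pass (median -0.47). Of the 20, 3 averaged under 1 FPKM in WGFT17 and so passed the minimum only through the other groups, Col6a3 among them; all 17 others fell too. Col6a3, a chain of the beaded collagen VI, had 0.683 ± 0.0681 FPKM in WGFT17, 12.3 ± 0.635 in JHU083 and 27.0 ± 1.59 in Control. Its log2 change was -5.40 in WGFT17 against Control (edgeR adjusted p = 8.11e-12) and -1.22 in JHU083 against Control (adjusted p = 7.90e-06). Col3a1, the collagen III chain, had 2.21 ± 0.150 FPKM in WGFT17, 33.8 ± 2.56 in JHU083 and 62.3 ± 7.62 in Control. Its log2 change was -4.93 in WGFT17 against Control (adjusted p = 8.24e-11) and -0.98 in JHU083 against Control (adjusted p = 0.000153). In JHU083 these collagens thus passed the test where Dcn and Bgn did not, though the difference between the genes was not tested. TGF-beta target and myofibroblast genes (11 tested) gave 2 rises and 9 falls in WGFT17 against Control (median -2.58), the same counts against JHU083 (median -1.76), and 1 rise, 7 falls and 3 not passing in JHU083 against Control (median -0.45). Among them, the contractile gene Cnn1 fell in WGFT17 (log2 -5.55, adjusted p = 9.83e-11) and in JHU083 (log2 -1.36, adjusted p = 6.87e-05), both against Control. At 0.463 FPKM in WGFT17, Cnn1 passed the minimum only through JHU083 and Control. Postn, the matricellular protein periostin, had 1.70 ± 0.288 FPKM in WGFT17, 10.3 ± 1.52 in JHU083 and 21.9 ± 3.15 in Control, and Tagln, an actin-binding protein, fell in WGFT17 against JHU083 (log2 -2.89, adjusted p = 5.92e-09).

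Receptors and ligands that the proteoglycans engage went in both directions, as tested genes did in general. Of all tested genes, 28.0% rose and 30.0% fell in WGFT17 against Control, and 11.5% and 12.5% in JHU083 against Control. Of 19 tested, 6 rose, 8 fell and 5 did not pass in WGFT17 against Control (median log2 change -0.19), 2 rose, 7 fell and 10 did not pass in JHU083 against Control (median -0.09), and 3 rose, 8 fell and 8 did not pass in WGFT17 against JHU083 (median -0.16). Tgfb3 had 2.55 ± 0.126 FPKM in WGFT17 against 26.8 ± 1.93 in Control (log2 -3.50, edgeR adjusted p = 1.23e-10), and Tgfb2 0.780 ± 0.0819 against 7.07 ± 0.656 (log2 -3.28, adjusted p = 1.02e-09), a gene that passed the minimum only through JHU083 and Control. Both encode TGF-beta isoforms, growth factors that decorin can bind. Of the list's 8 falls in WGFT17 against Control, 3 averaged under 1 FPKM in WGFT17, Tgfb2 among them. These passed the minimum only through the other groups. Tnf, a cytokine that biglycan can induce in macrophages, had 12.4 ± 1.17 FPKM in WGFT17 and 7.23 ± 1.73 in JHU083, and it was lower in JHU083 than in Control (13.1 ± 0.992 FPKM in Control, log2 -0.95, adjusted p = 0.00215). Tlr4, the receptor that soluble biglycan can engage, was named after its values were seen and rose in WGFT17 (log2 0.48, adjusted p = 0.00174) and in JHU083 (log2 0.46, adjusted p = 0.00955), both against Control. Of 11 tested proteases that process or cut these proteins, 2 rose and 9 fell in WGFT17 against Control (median -1.15), 1 rose, 9 fell and 1 did not pass in WGFT17 against JHU083 (median -1.17), and 1 fell and 10 did not pass in JHU083 against Control (median 0.07). The gelatinase genes Mmp9 (7.36 ± 0.505 FPKM in WGFT17 against 30.5 ± 4.92 in Control) and Mmp2 (37.7 ± 1.99 against 104 ± 7.77) both fell, with log2 changes of -2.16 (adjusted p = 2.23e-07) and -1.57 (adjusted p = 5.05e-09). Mmp2 was also the protease that fell in JHU083 against Control (log2 -0.37, adjusted p = 0.00308). Of the 9 protease falls in WGFT17 against Control, 1 was of a gene averaging under 1 FPKM in WGFT17. The collagenase gene Mmp13 had 8.85 ± 1.12 FPKM in WGFT17 against 29.1 ± 7.62 in JHU083 (log2 -1.73, adjusted p = 7.32e-06).

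**Figure D4:**
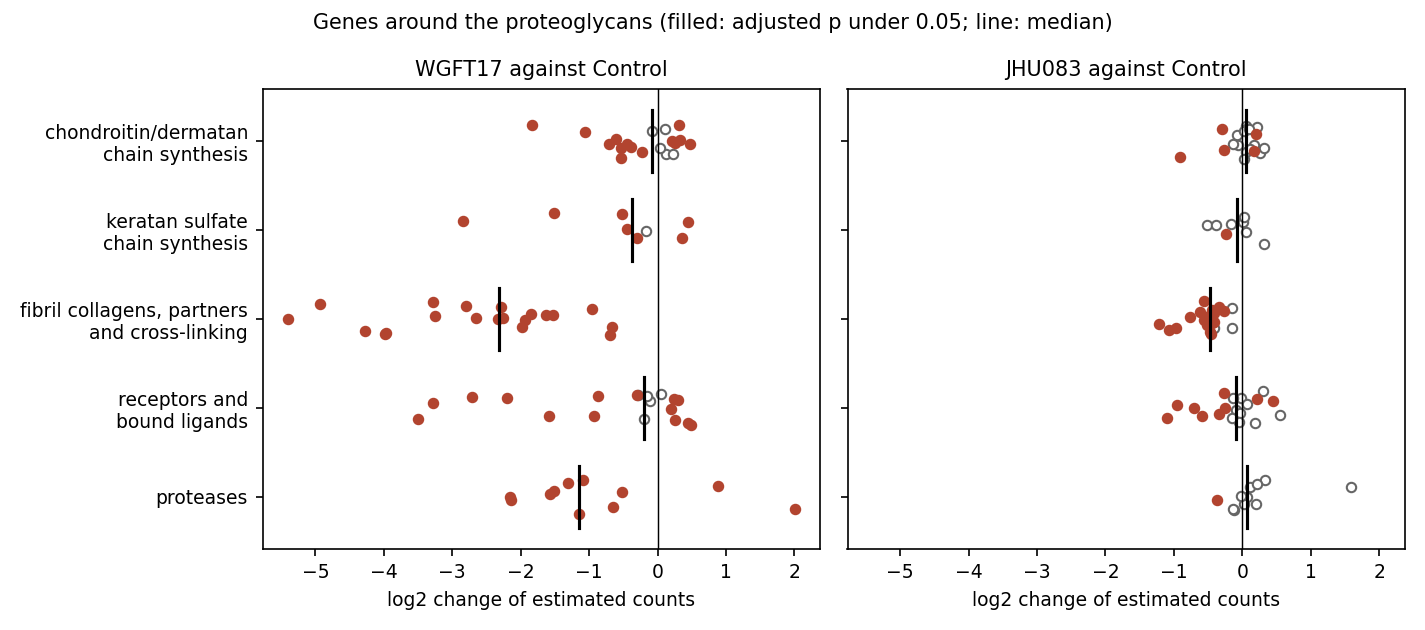
Log2 change of the estimated counts (horizontal axis) for tested genes of 5 related lists (chondroitin or dermatan sulfate synthesis, keratan sulfate synthesis, collagens, receptors and ligands, proteases; the TGF-beta target list is not plotted), in WGFT17 against Control (left) and JHU083 against Control (right). Each point is a gene, filled where the adjusted p was under 0.05, and the vertical line is the list's median. Of these 5, the collagen list lies furthest to the left in WGFT17 (median -2.31), while both sugar chain lists lie nearer to 0 (medians -0.07 and -0.37).

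Of 10 further family genes listed, 8 were in the table and 2 passed the minimum, and these went opposite ways. Tsku (tsukushi), a secreted inhibitor of growth factor signalling, had 19.3 ± 1.35 FPKM in WGFT17 against 9.55 ± 0.361 in Control and rose 1.87-fold (log2 0.91, edgeR adjusted p = 2.71e-06). Podnl1, a podocan-like gene, had 2.39 ± 0.370 FPKM in WGFT17 against 7.58 ± 0.606 in Control and fell 3.42-fold (log2 -1.78, adjusted p = 9.01e-07). In WGFT17 against JHU083 Tsku rose (log2 0.97, adjusted p = 2.01e-06) and Podnl1 fell (log2 -1.5, adjusted p = 4.30e-06). Neither passed in JHU083 against Control.

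On a scale of log2(FPKM + 1), the genes whose profiles were most like that of Prelp were not of its family. Likeness was the root mean square difference between profiles of log2(FPKM + 1), each centred on its own mean over the 9 libraries, among 10790 genes. The 6 closest were Rrm2, Nusap1, Bub1b, Ncapd2, Top2a and Pclaf, at 0.15, 0.15, 0.17, 0.17, 0.18 and 0.18. Rrm2, for example, averaged 3.79 FPKM in WGFT17, 25.8 in JHU083 and 20.1 in Control. Of the members, Ogn was nearest to Prelp, at rank 92 (0.37). For Bgn the closest genes were Daam2, Fgfr1 and Pcdh19, at 0.04, 0.04 and 0.05. The pseudocount of 1 shrinks the changes of low genes on this scale: Daam2, at 0.353 FPKM in WGFT17 and 1.38 in Control, ranks beside Bgn although its ratio between groups is larger. Prelp is such a low gene too. Its mean FPKM in WGFT17 was 8.54% of Control, and that of Ogn 9.89%, so the ranks depend on the scale. All 9 libraries share their group structure, so these distances describe the profiles and carry no test.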

How the data were processed

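One table of 28998 genes was used. Per the file headers, each of 9 libraries has an FPKM and a count column. The estimated counts were deposited by the authors as whole numbers not scaled to depth. They needed no rounding. In Control replicate 1, 868 genes stood at a count of 4 against 570 at 3 and 290 at 5, the pattern of coverage-derived values with about 4 counts for 1 read pair. FPKM, as deposited, is scaled to transcript length and depth. Build mm9 stands in the submitters' processing notes beside StringTie 2.1.6, HISAT2 2.2.1, cutadapt 1.9, edgeR and DESeq2, with no roles. The counting settings are not given in the sources used here. Gene positions are identical to GENCODE M21 on GRCm38 for 26125 of 28926 matched identifiers. Per the labels, poly(A) RNA was sequenced as dUTP-stranded pairs of 150 bases. Totals were 56624220 to 69112134 counts per library.

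The 11798 genes whose FPKM averaged 1 or more were tested with edgeR 4.0.16 (R 4.3.3): quasi-likelihood on the counts, TMM factors, 1 fit of all 9 libraries, Benjamini-Hochberg adjustment within a comparison, call at 0.05. SEs are the log2 change divided by the root of the F statistic. Means and SDs are of FPKM. Alternatives were other filters, scalings and group choices, a replicate block, DESeq2 1.42.0, limma 3.58.1 on log2(FPKM + 1 or 0.1), counts divided by 4, and libraries left out.

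The members, gene lists and markers were chosen with earlier results of these data known. Named genes are the members and those said to be chosen later. Per list and comparison, the 2 called genes of largest change whose higher group averaged 5 FPKM or more are also named. Values of cell type lists were left to their sums, except for stroma, bone and the macrophage markers named. Promoters are from RefSeq, in which 6 of the 8 members were matched. Intervals are exact at 95% and cover counting error only.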

Additional observations from a re-analysis of the deposited data

How the results depend on the processing

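The number of called members other than Prelp was 1 in JHU083 against Control and 4 in each WGFT17 comparison, and it stayed at 1, 4 and 4 when any 1 library was left out and under the other filters, scalings and fits not named next. Without the FPKM minimum, when Lum, Aspn and Omd were tested too, the counts were 2, 7 and 7. DESeq2 called 2 members in JHU083 against Control, Fmod and Bgn. With the replicate number as a block (replicate block) the counts were 1, 4 and 4. Same-numbered libraries deviated together with correlations of only -0.117 to 0.0513. These show no strong shared deviation, but so few libraries cannot tell whether the numbers pair them. With JHU083 replicate 3 alone for its group the counts were also 1, 4 and 4, but there the lone library is assumed to vary like the other groups, so this says nothing of stability within JHU083. The log2 change of Dcn in JHU083 against Control turned to 0.011 and 0.012 in the limma fits with pseudocounts of 1 and 0.1 and ranged from -0.177 to 0.0523 with 1 library left out, above 0 without Control replicate 3, and that of Ogn turned to 0.044 with JHU083 replicate 3 alone; the cause was not tested. Dcn per summed fibroblast markers turned from a log2 ratio of 0.32 to -0.17 without Cxcl12. Prelp in WGFT17 against Control ranged from -3.73 to -3.51 with 1 library left out and was -2.05 on log2(FPKM + 1), a scale that understates changes of low genes. Over all genes, 2831 were called in JHU083 against Control, but 1534 without Control replicate 2 and 1568 without Control replicate 3. The share of calls that were higher was 47.7% there, 58.7% with library totals alone and 71.6% with limma on log2(FPKM + 1); in WGFT17 against Control it was 48.3%, and 60.9% in that limma fit. The median change of all genes was at most 0.112, in the fit of log2(FPKM + 0.1). Depth limits Lum, Aspn and Omd in WGFT17, which rest on 0 to 4 read pairs.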
